A study of Mus musculus with 51 samples.

Results

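The oxidative phosphorylation subunits were followed across mouse cancer cells and tumors in which Uba1, the enzyme that activates ubiquitin, was targeted, inhibited or overexpressed. Members were chosen by gene name: the Nduf genes of complex I (Ndufa, b, c, s and v), Sdha to Sdhd, and the genes whose names start with Uqcr, Cox4 to Cox8 or Atp5, together with the mitochondrially encoded mt-Nd, mt-Co, mt-Cytb and mt-Atp genes. Of 40077 genes in the tables, 108 matched, and 91 were kept because they held at least 10 counts in at least 2 libraries. The kept members were 78 nuclear genes (35 of complex I, 4 of complex II, 8 of complex III, 14 of complex IV, 17 of complex V) and 13 mitochondrial genes (7 of complex I, 1 of complex III, 3 of complex IV, 2 of complex V). Ndufa4 was counted with complex IV, where its protein is found. The 17 genes left out were 10 annotated pseudogenes, a second Atp5o gene at 0 counts, Cox5b-ps, and the tissue-restricted isoforms Cox6a2, Cox6b2, Cox7b2, Cox8b and Cox8c.

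RNA was sequenced in bulk from 16 libraries of cultured Myc-CaP cells, a mouse prostate cancer line, and from 35 subcutaneous tumors of Myc-CaP or of B16-BL6, a mouse melanoma line. One cell experiment had 4 groups of 2 libraries: untreated, TAK-243 (50 nM, an inhibitor of ubiquitin activation), IFN-γ (1 ng/mL for 18 h, a T cell cytokine), and TAK-243 with IFN-γ. The other had control sgRNA (NC) and sgUba1 cells, each with and without IFN-γ, again in 4 groups of 2, the sgRNA lines having each been grown out from single sorted cells. The tumor experiments compared 4 sgUba1 with 3 control B16-BL6 tumors, 7 sgUba1 with 3 control Myc-CaP tumors, 4 Myc-CaP tumors overexpressing Uba1 (Uba1 OE, from a lentiviral CMV vector) with 3 carrying the empty vector (EV), and 5 Myc-CaP tumors of mice given TAK-243 (25 mg/kg intravenously, 2 per week) with 6 given vehicle. Myc-CaP was grown in male FVB mice and B16-BL6 in female C57BL/6 mice of 6 to 8 weeks. Cells were injected into both flanks and the labels tie no tumor to a mouse, nor any cell library to a culture, so p-values measure only the spread between these samples. In a bulk sample, fewer cells of a type and less RNA per cell cannot be told apart.

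Oxidative phosphorylation is run by 5 complexes of the inner mitochondrial membrane. Complex I oxidizes NADH and complex II succinate, both passing electrons to ubiquinone; complex III hands them to cytochrome c, complex IV reduces oxygen, and complex V, the ATP synthase, uses the proton gradient that complexes I, III and IV build. Subunits of 4 complexes are encoded partly in the nucleus and partly in mitochondrial DNA, whose genes are transcribed as long RNAs from both strands and then cleaved, whereas complex II is encoded wholly in the nucleus.

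Library totals ran from 8652097 to 38032395 counts. The targeted gene was checked first. Uba1 stood at 295 and 283 CPM (counts over library size, TMM scaled) in sgUba1 cells and at 533 and 526 in control sgRNA cells, a log2 fold change of −0.87 (SE 0.046, edgeR adjusted p = 3.711e-07). In B16-BL6 tumors it was 226 ± 16.3 CPM (SD, n = 4) with sgUba1 and 426 ± 24.9 (n = 3) in controls, and in OE tumors 631 to 747 CPM against 278 to 310 with EV. The Myc-CaP tumors labelled sgUba1 fell apart: tumors 1 to 3 held 197, 202 and 211 CPM of Uba1, controls held 320, 325 and 337, and tumors 4 to 7 held 373, 361, 368 and 383. Since tumors 4 to 7 held more Uba1 RNA than any control, results for that group are given for all 7 and for tumors 1 to 3 alone. Cell identity was checked by summed markers: a melanocyte list reached 11377 to 12233 TPM (a per-length scale) in B16-BL6 control tumors and at most 16.3 in the control sgRNA Myc-CaP tumors. In untreated cultured cells the epithelial marker Epcam was listed at 0.

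Several mitochondrial genes share their sequence with nuclear copies, and these sequences are shown because they decide how far each member's count can be read. A stretch of mitochondrial DNA lies inserted on the minus strand of chromosome 1 in GRCm38, where GENCODE M21 annotates unprocessed pseudogenes. The copy Gm28661 (chr1:24614885-24615565) matched 681 bases of mt-Co2 with 0 mismatches, Gm10925 (chr1:24613974-24614651) 678 bases of mt-Atp6 with 0, Gm28437 (chr1:24613189-24613971) 783 bases of mt-Co3 with 0, and Gm28438 (chr1:24612775-24613119) 345 bases of mt-Nd3 with 1. The first 30 bases of each coding sequence, from the GENCODE M21 transcripts, run as follows, with the differing base of the mt-Nd3 pair in capitals.
mt-Co2 and Gm28661: atggcctacccattccaacttggtctacaa
mt-Atp6 and Gm10925: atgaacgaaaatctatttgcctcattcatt
mt-Co3 and Gm28437: atgacccaccaaactcatgcatatcacata
mt-Nd3: atTaacctgtacactgttatcttcattaat
Gm28438: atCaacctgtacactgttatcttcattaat

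The single mismatch is T3C, counted from 1 at the 5′ end of mt-Nd3. Counts were divided between each pair: over all libraries the copy took 58.8% of the counts of mt-Co2 and Gm28661 together, 36.1% for mt-Atp6, 40.1% for mt-Co3 and 78.1% for mt-Nd3. These 4 genes are therefore uncertain, and mt-Co1 shares a shorter stretch with Gm29216 (7.19% of both counts). Among nuclear members, Atp5g2 shares 645 identical bases with Gm10175 (chr7:23946646-23947290), which took 77.1% of both counts, and Cox7a2l is close to Gm6969 (10.4%). The sources used here do not say whether strand was used in counting. Therefore mt-Nd6 (chrM:13552-14070), the only protein gene on the minus strand, cannot be told apart from antisense RNA, and mt-Atp8 with mt-Atp6, and mt-Nd4l with mt-Nd4, overlap on the same strand.

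Most mitochondrial members stood above the nuclear ones on the per-length TPM scale. In control Myc-CaP tumors mt-Nd6 (median 504 TPM) and mt-Nd3 (334) instead lay below several nuclear members, such as Atp5b (1083). Averaged over all 51 libraries, mt-Nd4l reached 7382 TPM, mt-Atp8 7101, mt-Co1 6732 and mt-Cytb 5544, whereas the highest member of complex II, Sdhb, reached 161 TPM. In 12 control Myc-CaP tumors the highest nuclear member of each complex was Atp5b (median 1083 TPM; the catalytic β subunit of the ATP synthase), Cox4i1 (977; the common isoform of cytochrome oxidase subunit 4), Uqcrh (615; the hinge subunit of complex III), Ndufa12 (309; an accessory subunit of complex I) and Sdhb (132; the iron-sulfur subunit of complex II). Isoforms for other tissues were low: over the 51 libraries Cox4i2 ranged from 0 to 3.23 TPM against 546 to 1171 for Cox4i1, and Cox7a1, the muscle isoform, from 2.13 to 28.1 TPM against 243 to 476 for Cox7a2.

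Levels in B16-BL6 and Myc-CaP control tumors are given as ranges with no test. Of 78 nuclear members, 27 lay wholly above the Myc-CaP range in 3 B16-BL6 tumors, 8 wholly below and 43 overlapped, beside 23.8% of all 19836 genes with at least 10 counts in at least 2 libraries above and 24.6% below. Ndufv3, a small subunit of the NADH-oxidizing arm, had a median of 581 TPM against 141, Ndufa9, which sits near the ubiquinone pocket, 173 against 55.1, and Uqcrq of complex III 678 against 262. Ndufv1, which binds the flavin that takes electrons from NADH, went the other way (65.8 against 156 TPM), as did Cox4i1 (697 against 977 TPM). Of the 13 mitochondrial genes 4 lay above (mt-Co1, mt-Nd6, mt-Nd1, mt-Atp8), mt-Atp6 lay below and 8 overlapped. These positions leave out the counts of nuclear copies. With the counts of its copy added, mt-Atp6 turned the other way. It was then 3330 to 3536 CPM in B16-BL6 controls and 1850 to 2331 CPM in Myc-CaP controls, scaled within each experiment. Myc-CaP control tumors and the 4 unstimulated control cell libraries overlapped for 66 of 78 nuclear members and 10 of 13 mitochondrial ones, the other 3 being above, where 31.3% of all genes lay above and 9.26% below. Cox7a2l, which promotes the joining of complexes III and IV into supercomplexes, was among 6 above in tumors (207 against 108 TPM), and Sdhd, a membrane anchor of complex II, among 6 below (111 against 165 TPM).

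**Figure D1:**
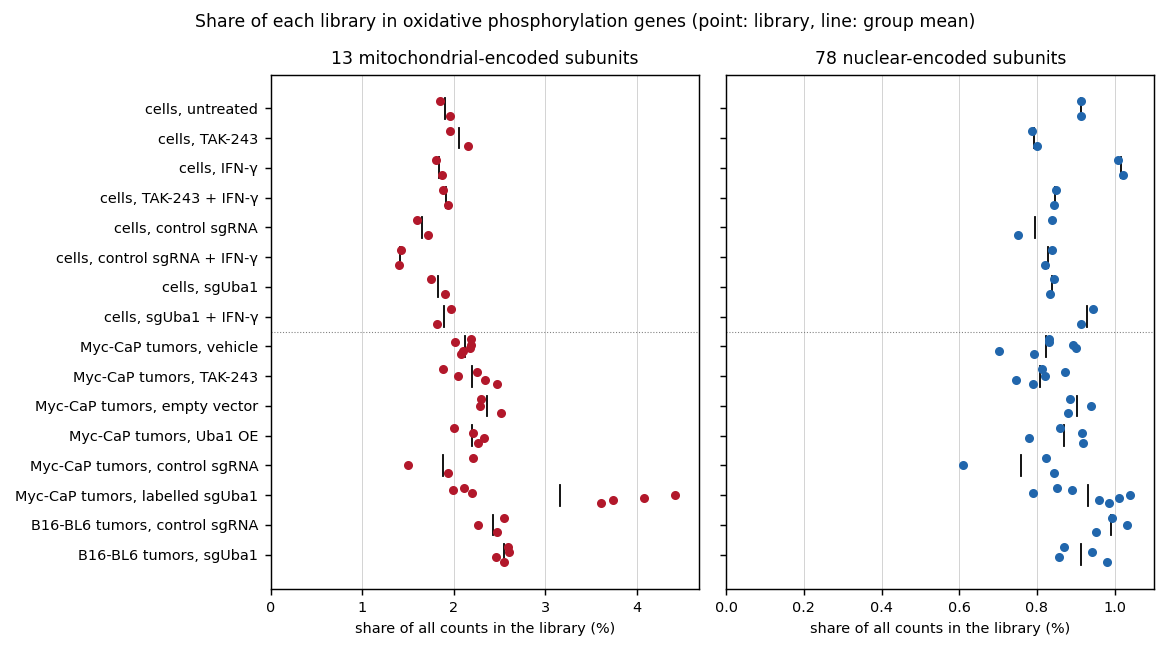
Share of each library's counts (percent, horizontal axes) held by the 13 mitochondrial members (left) and the 78 nuclear members (right), with 1 row per group, 1 point per library and a line at the group mean. Most tumors sit near 2 percent for mitochondrial members, whereas Myc-CaP tumors 4 to 7 labelled sgUba1 sit between 3.61 and 4.41 percent.

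In cultured cells with TAK-243 most nuclear members fell and most mitochondrial ones rose. Without IFN-γ, 26 of 90 members rose and 47 fell (edgeR quasi-likelihood test, Benjamini-Hochberg adjusted p below 0.05), beside 66.3% of all 14551 genes tested, 32.3% higher and 34% lower. The median log2 fold change was −0.18 over members and 0.03 over all genes. Of the 77 nuclear members tested 16 rose and 45 fell (median −0.21), and of the 13 mitochondrial ones 10 rose and 2 fell (median 0.39). By counts, the mitochondrial share went from 1.90% ± 0.071 (SD, n = 2) to 2.05% ± 0.14 of all counts and the nuclear share from a mean of 0.914% to 0.793%, and no test was made of these shares. The mitochondrial shares met end to end, at 1.852 and 1.953% in the untreated libraries and 1.954 and 2.151% with TAK-243.

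**Figure D2:**
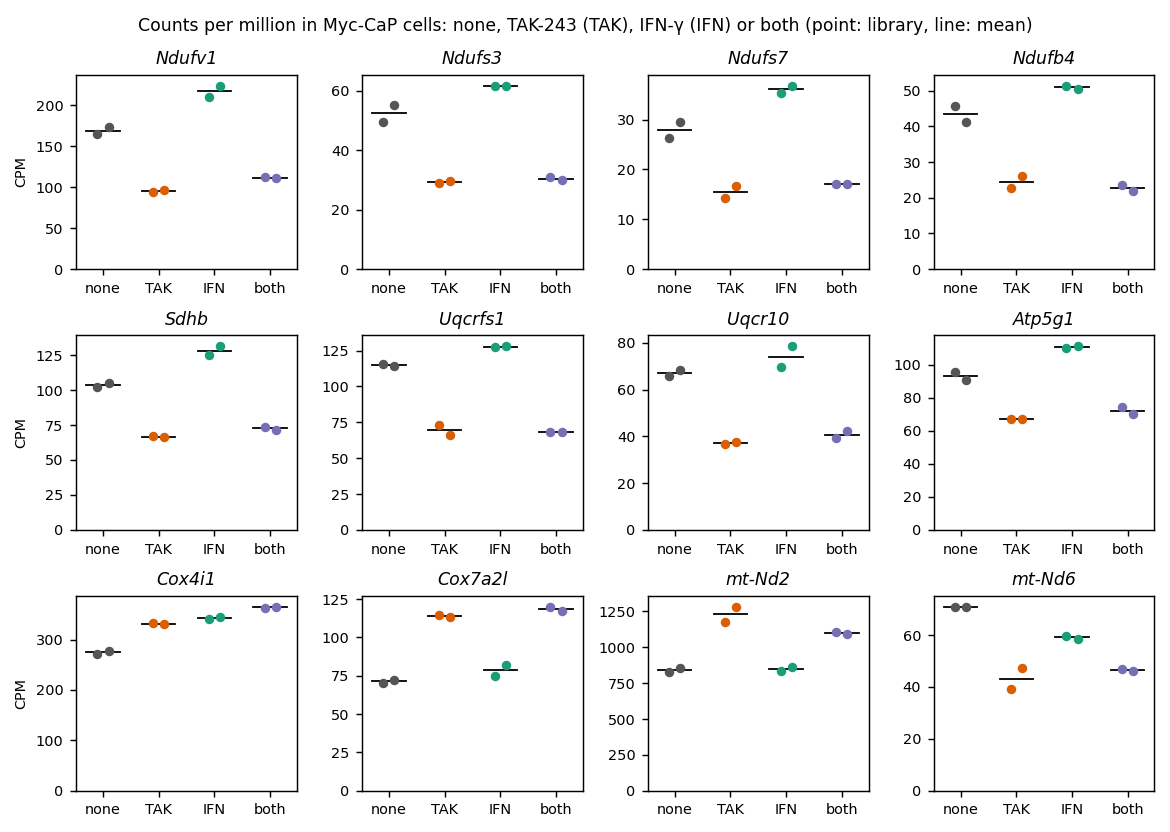
CPM (vertical axes) of 12 members in each of the 2 libraries of untreated, TAK-243, IFN-γ and TAK-243 with IFN-γ cells, 1 panel per gene. Ndufv1, Ndufs3 and Sdhb are lower in both libraries with TAK-243 than in either without it, and Cox7a2l and mt-Nd2 are higher.

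Complex I, which has the most nuclear members, also carried the largest count of lower genes. Of its 35 nuclear members 25 fell and 1 rose (median −0.43), beside 34% of all genes lower and 32.3% higher. Ndufv1 was 165 and 173 CPM in untreated cells, 94.7 and 96.0 with TAK-243, 210.0 and 224 with IFN-γ, and 113 and 111 with both. Every library with TAK-243 thus lay below every library without it, and the log2 fold changes were −0.82 (SE 0.042, adjusted p = 7.514e-17) without IFN-γ and −0.96 (SE 0.040, adjusted p = 5.136e-19) with it. Ndufv3 went from 33.1 and 33.2 CPM to 14.9 and 16.05 (log2 fold change −1.10, adjusted p = 4.258e-10), the largest fall among the members. Ndufv2, an iron-sulfur subunit beside Ndufv1, went from 79.1 and 74.5 CPM to 44.0 and 43.2 (−0.82, adjusted p = 8.47e-13).

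Subunits were next grouped by position in the complex, a grouping made after values were seen. All 5 listed for the quinone-binding module fell, among them Ndufs7 (−0.85), Ndufs3 (−0.84), Ndufa5 (−0.71) and Ndufs8 (−0.44). Ndufa9, near the ubiquinone pocket but outside that list, was not called in either direction. Ndufs3, a core subunit, went from 49.5 and 55.3 CPM to 28.9 and 29.6, and Ndufs7, which holds the last iron-sulfur cluster before ubiquinone, from 26.2 and 29.6 to 14.4 and 16.8. In the NADH-oxidizing module 7 of 10 members fell (median −0.55). Ndufs4, an accessory subunit whose loss causes Leigh syndrome, rose instead, from 44.0 and 39.3 CPM to 54.4 and 56.0 (0.40, SE 0.071, adjusted p = 9.496e-06). Of the other 20 nuclear members 13 fell, among them Ndufb4 of the membrane arm (45.7 and 41.3 CPM to 22.7 and 26.1). Ndufb8, also of the membrane arm, was 125 and 124 CPM against 127 and 139 and did not pass the test (adjusted p = 0.06971).

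Of the 4 genes of complex II, 3 fell and 1 rose. Sdha, the flavin subunit that oxidizes succinate, went from 162 and 159 CPM to 111 and 112 (−0.53, adjusted p = 1.632e-12). Sdhb went from 102 and 105 CPM to 67.2 and 66.3 (−0.63, adjusted p = 9.906e-13), and Sdhc, a membrane anchor, from 56.2 and 59.7 to 34.5 and 36.3 (−0.71, adjusted p = 3.536e-10). The partner anchor Sdhd rose from 131 and 125 CPM to 143 and 151 (0.20, adjusted p = 6.195e-05). Both membrane anchors of the complex therefore moved, in opposite directions.

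Complex III was divided as well, with 4 of 8 nuclear members lower and 3 higher. Uqcrfs1, the Rieske iron-sulfur protein, went from 116 and 114 CPM to 73.2 and 66.3 (−0.71, adjusted p = 6.277e-14), and the small subunit Uqcr10 from 65.9 and 68.6 to 36.6 and 37.6 (−0.86, adjusted p = 3.953e-12). Uqcrh rose from 97.1 and 103 CPM to 129 and 140 (0.42, adjusted p = 1.877e-09), Uqcrc2 by 0.21 and Uqcrb by 0.20 on the log2 scale. The core protein Uqcrc1 was 174 and 168 CPM against 165 and 162 and did not pass the test (adjusted p = 0.1037).

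Complex IV leaned the other way, with 7 of 13 nuclear members higher and 4 lower (median 0.15). Cox7a2l showed the largest rise among the members, from 70.4 and 72.2 CPM to 115 and 113 without IFN-γ (0.68, SE 0.048, adjusted p = 1.797e-13) and from 75.1 and 81.8 to 120 and 117 with it (0.59, adjusted p = 2.782e-12). Cox6c rose by 0.35 and Cox4i1 by 0.27, from 271 and 278 CPM to 332 and 331. Cox5a fell by 0.33, Cox7c by 0.32 and Cox7b by 0.29 on the log2 scale. Of their isoforms, Cox7a2 rose by 0.22 while Cox7a1 lay between 0.481 and 1.21 CPM in all 8 libraries.

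In complex V, 9 of 17 nuclear members fell and 4 rose. All 3 genes that encode the same c-ring protein fell, Atp5g2 by 0.80, Atp5g1 by 0.47 and Atp5g3 by 0.10 on the log2 scale. Atp5g1 went from 95.9 and 90.8 CPM to 67.0 and 67.4, and Atp5g2, uncertain for its copy, from 54.1 and 51.3 to 31.4 and 29.1. Of the 5 subunits of the catalytic F1 head, Atp5a1, Atp5c1, Atp5d and Atp5e fell by 0.17 to 0.21, and Atp5b rose, from 1335 and 1339 CPM to 1544 and 1551 (0.21, SE 0.025, adjusted p = 1.025e-08). The α and β subunits alternate in that head, and their transcripts moved apart. Atp5h of the stalk rose by 0.30.

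Of the 9 mitochondrial genes other than the 4 uncertain for their copies, 8 rose with TAK-243 and 1 fell. mt-Nd2 went from 829.6 and 857 CPM to 1179 and 1279 (0.54, adjusted p = 1.324e-15), and mt-Nd5 from 1356 and 1366 to 1774 and 1836 (0.41, adjusted p = 1.034e-14). mt-Atp8, an ATP synthase subunit, went from 152 and 160 CPM to 229 and 232 (0.56, adjusted p = 5.508e-14). mt-Nd1, mt-Nd4 and mt-Nd4l rose by 0.39 to 0.40, mt-Cytb by 0.27 and mt-Co1 by 0.10. The gene that fell was mt-Nd6, at 70.6 and 70.7 CPM in untreated cells and 39.1 and 47.3 with TAK-243 (−0.72, SE 0.070, adjusted p = 2.048e-10). Its share of all mitochondrial member counts went from 0.392% ± 0.015 (SD, n = 2) to 0.204% ± 0.013. Among the genes uncertain for their copies, mt-Atp6 rose by 0.32, mt-Co3 did not pass the test (0.06, adjusted p = 0.7351), and mt-Co2 fell by 0.28 (adjusted p = 0.002206) although adding the counts of its copy turned it to 0.05. mt-Nd3 stood at 86.4 and 42.6 CPM untreated against 76.3 and 93.8 with TAK-243, and its rise of 0.39 (adjusted p = 0.02181) turned to −0.04 without the second untreated library.

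The same contrast in IFN-γ-stimulated cells, with other control libraries, gave 17 members higher and 55 lower of 90 (median −0.31), beside 68.2% of all genes (32% higher, 36.2% lower, median 0.02). All 47 members lower without IFN-γ were also lower with it, 85.5% of the 55, and 17 of the 26 higher were higher again, 65.4% of the 26. By complex, nuclear members higher and lower were 1 and 28 of 35 for complex I, 1 and 3 for complex II, 1 and 5 for complex III, 4 and 5 for complex IV, and 2 and 11 for complex V. Mitochondrial genes were 8 higher and 3 lower. mt-Co1, which rose by 0.10 without IFN-γ, fell by 0.14 with it, from 5460 and 5572 CPM to 5005 and 5004 (adjusted p = 2.958e-06). On log2(TPM + 1) in limma the split was 26 higher and 44 lower (median −0.15), where the median of all genes was itself 0.12.

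**Figure D3:**
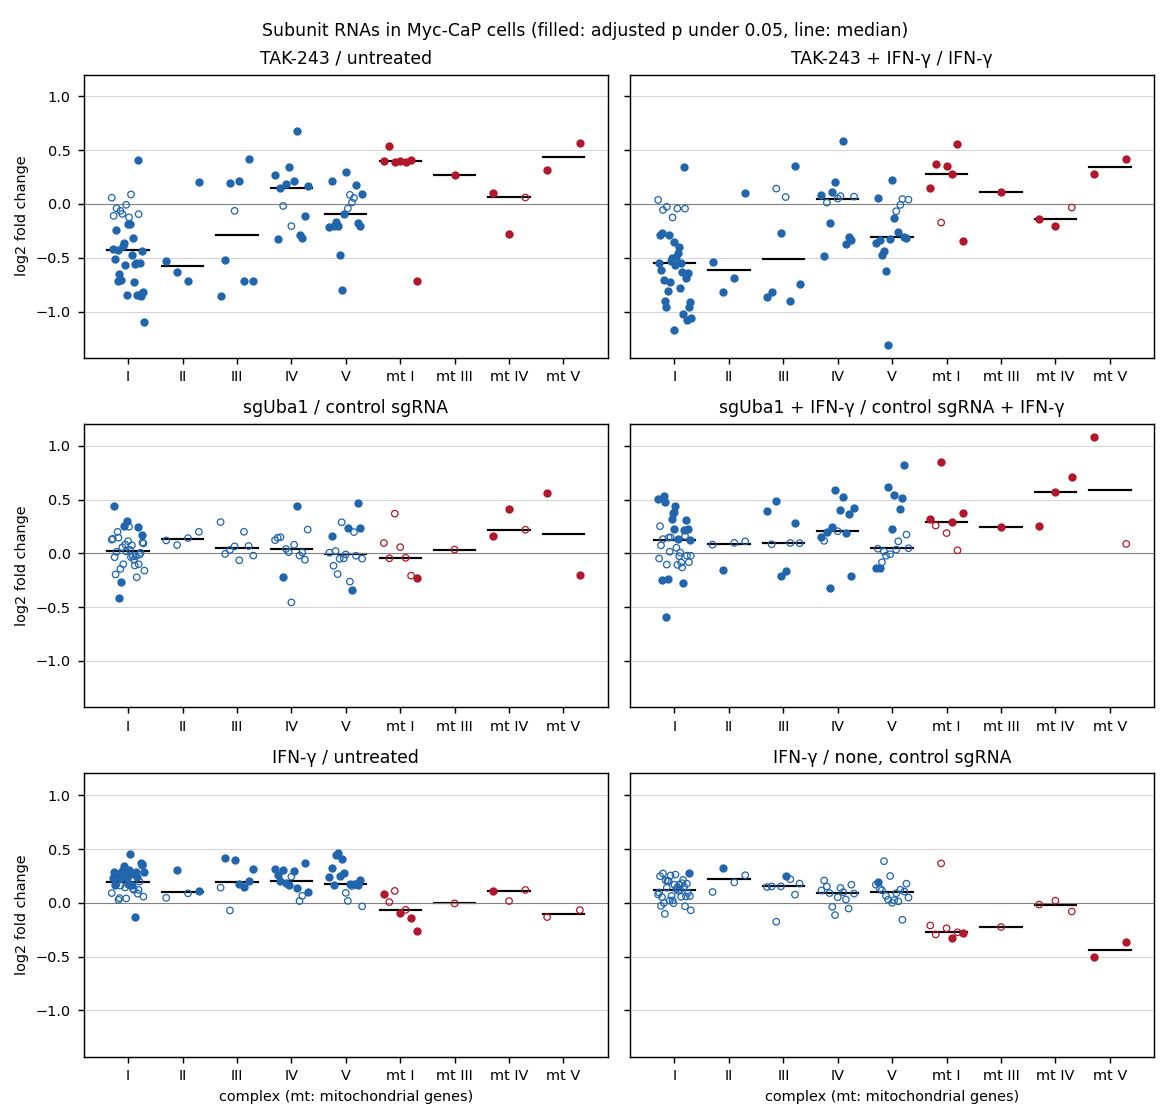
Log2 fold change (axis in log2 units) of each member in the 6 contrasts in cultured cells, ordered by complex, with nuclear genes in blue and mitochondrial genes in red, and filled points for an edgeR adjusted p below 0.05. With TAK-243 the blue points of complex I lie mostly below 0 and most red points above 0.

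IFN-γ alone moved the members little in size but mostly upward. In untreated cells 53 of 90 rose and 4 fell (median 0.17), beside 29% of all genes, 19.6% higher and 9.39% lower (median 0.04). Of nuclear members 51 rose and 1, Ndufs1, fell (by 0.13), and by complex 20 of 35, 2 of 4, 6 of 8, 10 of 13 and 13 of 17 rose. Atp5b went from 1335 and 1339 CPM to 1640 and 1698 (0.32, SE 0.025, adjusted p = 3.808e-11), Cox4i1 from 271 and 278 to 341 and 344 (0.32, adjusted p = 2.134e-09) and Sdhb from 102 and 105 to 125 and 131 (0.31, adjusted p = 2.884e-06). Of mitochondrial genes mt-Co1 and mt-Nd1 rose by 0.11 and 0.09, mt-Nd5, mt-Nd4 and mt-Nd6 fell by 0.14, 0.10 and 0.26, and 8 did not pass. This split depended on scaling: on log2(TPM + 1) 9 rose and 16 fell, with medians of −0.05 over members and −0.14 over all genes, so the members' median lay above that of all genes on both scales.

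In control sgRNA cells the same cytokine contrast called 4 members higher and 4 lower of 90 (median 0.10), beside 3.88% of all genes, 3.03% higher and 0.856% lower (median 0.04). Sdhb went from 104 and 101 CPM to 127 and 130 (0.32, adjusted p = 0.006057), and Ndufv1, Uqcrc2 and Atp5b rose by 0.28, 0.25 and 0.20. All 4 were also higher with IFN-γ in untreated cells. Those that fell were all mitochondrial: mt-Atp6 by 0.50, mt-Atp8 by 0.37, mt-Nd4l by 0.33 and mt-Nd6 by 0.28. With the counts of its copy added mt-Atp6 was at −0.18 (adjusted p = 0.1957), and 3 members were called lower. The 2 control sgRNA libraries differed for many members, for example Atp5e at 73.9 and 30.2 CPM, and leaving out the first of them raised the count to 52 while leaving out either stimulated library took it to 0.

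The TAK-243 effect differed with IFN-γ for 16 of 90 members in the interaction test, 2 upward and 14 downward, beside 2.38% of all genes, 0.371% upward and 2.01% downward. Leaving out 1 library at a time, whichever it was, took the count to between 3 and 9. Atp5g2 had the most negative term (−0.51, SE 0.10, adjusted p = 0.003911), since it fell by 0.80 without IFN-γ and fell by 1.31 with it, but with the counts of its copy added the term was −0.18 (adjusted p = 0.1286). Next came Ndufb6 (−0.44, adjusted p = 0.02474), a membrane arm subunit. mt-Co1 had the lowest adjusted p (−0.24, 2.225e-05). The terms above 0 were those of mt-Nd6 (0.38, adjusted p = 0.03607) and mt-Nd5 (0.15, adjusted p = 0.01736). On log2(TPM + 1) in limma 0 terms passed and 13 had an unadjusted p below 0.05, where the median term of all genes was 0.11, and 9 passed in DESeq2.

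sgUba1 cells were set against control sgRNA cells, which share no library with the TAK-243 contrasts. In sgUba1 cells 13 of 90 members rose and 6 fell (median 0.03), beside 29.7% of all genes, 16.2% higher and 13.6% lower. Cox7a2l had the lowest adjusted p among them, at 55.6 and 55.6 CPM in control sgRNA cells and 74.1 and 76.5 in sgUba1 cells (0.44, SE 0.048, adjusted p = 6.463e-05). With IFN-γ it was 57.8 and 61.3 against 84.8 and 86.4 CPM (0.52, SE 0.047, adjusted p = 8.461e-06). Ndufa6, an accessory subunit of complex I, went down, from 31.1 and 29.3 CPM to 22.8 and 22.5 (−0.42, adjusted p = 0.0005534) and, with IFN-γ, from 34.6 and 35.2 to 22.8 and 23.6 (−0.59, adjusted p = 2.508e-05). Others that fell were Cox6a1 (−0.22), Ndufa8 (−0.27), Atp5k (−0.34), mt-Atp8 (−0.20) and mt-Nd6 (−0.23). Others that rose included Ndufa11, an accessory subunit of complex I, at 18.2 and 13.98 against 21.8 and 21.8 CPM (0.44, adjusted p = 0.007547), Atp5mpl (0.47) and, uncertain for their copies, mt-Atp6 (0.56) and mt-Co2 (0.41). With the counts of their copies added these were 0.05 (adjusted p = 0.6815) and 0.12 (adjusted p = 0.1582), neither passing the test. The count was 7 without either sgUba1 library and 50 without the first control sgRNA library.

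With IFN-γ 40 members were higher and 11 lower in sgUba1 cells (median 0.15), beside 39.4% of all genes, 17% higher and 22.4% lower (median 0.01), and the count of 51 was 27 and 28 without stimulated control library 1 and 2. Of the mitochondrial genes 9 rose (median 0.29). Among those uncertain for their copies mt-Atp6 went from 1.08 to 0.24 once the copy's counts were added (adjusted p = 0.02825), and mt-Co2 from 0.57 to 0.21 (adjusted p = 0.01552). mt-Nd6, lower without IFN-γ, was 97.0 and 101 CPM in stimulated controls and 134 and 124 in stimulated sgUba1 cells (0.38, adjusted p = 0.0008322). Nuclear members that rose included Cox6c (0.59), Atp5j (0.54), Atp5md (0.52) and Uqcrb (0.49). Those that fell included both core proteins of complex III, Uqcrc1 (−0.21) and Uqcrc2 (−0.16), with Sdhb (−0.16), Ndufs3 (−0.28) and Ndufa13 (−0.25). The interaction of sgUba1 and IFN-γ passed for 8 members, 7 upward and 1 downward, beside 4.64% of all genes, 0.663% upward and 3.97% downward. The count was 29 and 36 without control sgRNA library 1 and 2 and 0 to 3 without any other library. The terms were led by mt-Nd6 (0.61, SE 0.094, adjusted p = 0.01442) and Cox6c (0.58, adjusted p = 0.02052), with Uqcrc1 downward (−0.28, adjusted p = 0.03385).

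The calls of TAK-243 and of sgUba1 were set side by side, as they share no library. Of the 13 members higher in sgUba1 cells 5 were higher and 6 lower with TAK-243, and of the 6 lower 3 were lower and 1 higher. With IFN-γ, 11 of the 40 higher in sgUba1 cells were higher and 19 lower with TAK-243, while 10 of the 11 lower were lower. Of all 90 members, TAK-243 called 26 higher and 47 lower without IFN-γ, and 17 higher and 55 lower with it. Of all genes it called 32.3% higher and 34% lower without IFN-γ, and 32% and 36.2% with it. Ndufa6, Ndufa8 and mt-Nd6 were lower and Cox7a2l, Ndufs4 and Atp5b higher in both without IFN-γ, whereas Ndufs8 and Ndufb4 rose with sgUba1 (0.17 and 0.30) and fell with TAK-243 (−0.44 and −0.84).

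In tumors of mice given TAK-243, 0 of 90 members passed in edgeR and 4 had an unadjusted p below 0.05, all lower, beside 0.145% of all genes called, 0.0867% higher and 0.0578% lower. The median was −0.07 over members and 0.01 over all genes. The lowest adjusted p belonged to mt-Nd6, which was 87.7 to 114 CPM in 6 vehicle tumors (median 96.5) and 67.6, 82.3, 69.4, 68.9 and 70.2 in the 5 TAK-243 tumors. All TAK-243 tumors lay below all vehicle tumors (−0.46, SE 0.083, edgeR adjusted p = 0.06398), and DESeq2 gave an adjusted p of 0.00011. It was the only member whose groups did not overlap, beside 1.15% of all genes without overlap and lower and 0.884% higher. As a share of mitochondrial member counts it was 0.455% ± 0.031 (SD, n = 6) with vehicle and 0.336% ± 0.049 (n = 5) with TAK-243. The other 12 mitochondrial genes did not pass, with mt-Nd5 at 0.09 (SE 0.075) and mt-Co1 at −0.06 (SE 0.11). The dose in mice and the concentration in culture are not matched, and no comparison of size was made.

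In the B16-BL6 tumors 0 of 91 members passed by edgeR, beside 0.724% of all genes, 0.268% higher and 0.456% lower, and 33 had an unadjusted p below 0.05, 32 of them lower. The nuclear median was −0.15 and the mitochondrial median 0.13, against 0.01 over all genes. Uqcrh had the lowest adjusted p (0.1174), at 131, 132 and 117 CPM in controls and 105, 107, 93.9 and 108 with sgUba1 (−0.29, SE 0.072). Ndufs3 was 80.3, 88.9 and 80.1 CPM against 63.7, 72.2, 66.9 and 71.8 (−0.28), and Sdhb 206, 228 and 188 against 154, 177, 158 and 185 (−0.30). For each of these 3 genes all sgUba1 tumors lay below all controls. DESeq2 called these 3 and Cox4i1 lower. Groups did not overlap for 19 members lower and 3 higher of 91, beside 8.01% and 7.29% of all genes. mt-Nd6 was 136, 155 and 159 CPM in controls and 169, 169, 215 and 180 with sgUba1 (0.29, adjusted p = 0.2016), above all controls and in the other direction than with TAK-243.

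**Figure D4:**
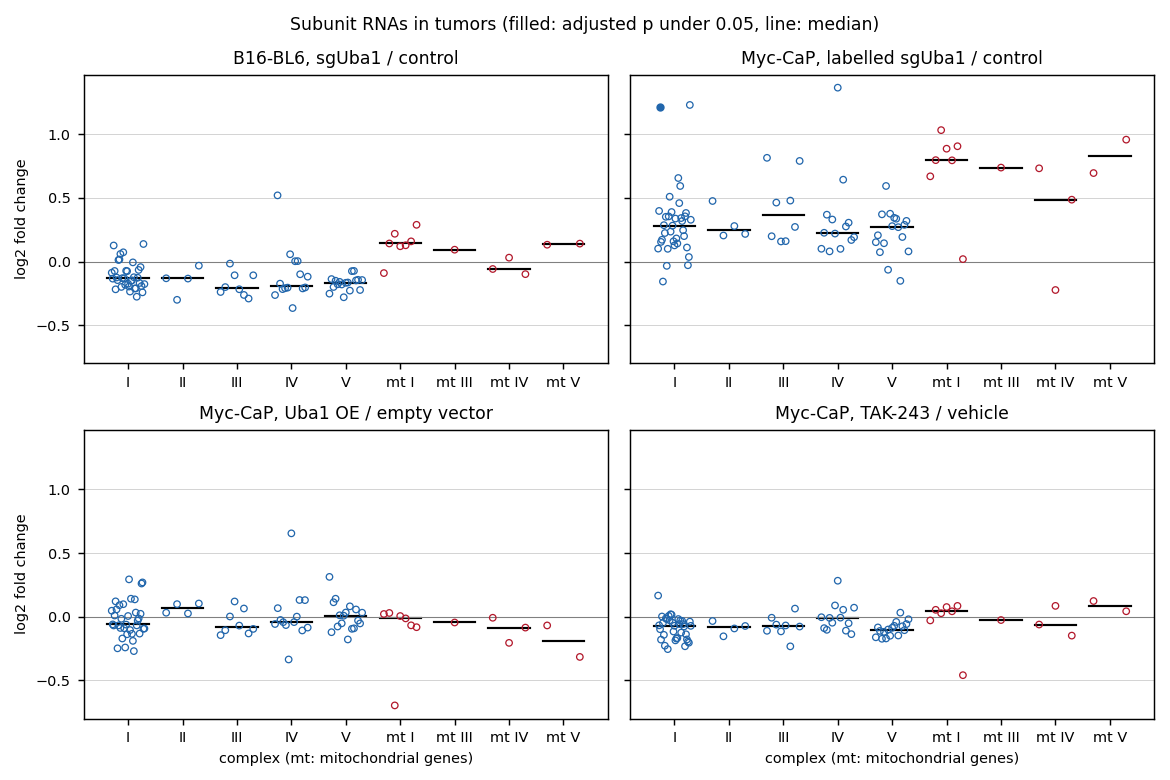
Log2 fold change (axis in log2 units) of each member in the 4 tumor contrasts, ordered by complex, nuclear genes in blue and mitochondrial genes in red, filled where the edgeR adjusted p is below 0.05. Only Ndufa11 in the Myc-CaP tumors labelled sgUba1 is filled.

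In the Myc-CaP tumors labelled sgUba1 1 of 90 members passed, Ndufa11 (1.21, SE 0.28, adjusted p = 0.0471), beside 3.04% of all genes, 1.15% higher and 1.89% lower. The count was 0 without any 1 control or any 1 of tumors 1, 4, 5, 6 and 7. Another 27 had an unadjusted p below 0.05, all higher. The median was 0.28 over members, 0.74 over mitochondrial genes and 0.00 over all genes. Groups did not overlap for 5 members higher and 1 lower, beside 5.54% and 5.38% of all genes. Ndufa11 also differed between tumors 1 to 3 and tumors 4 to 7. It was 15.9, 15.4 and 17.4 CPM in controls, 25.3, 25.7 and 24.7 in tumors 1 to 3, and 51.9, 51.4, 42.5 and 42.0 in tumors 4 to 7. Every tumor labelled sgUba1 was above every control, but on tumors 1 to 3 alone the log2 fold change was 0.63 with an adjusted p of 0.110, and with those tumors 0 members passed, 9 had an unadjusted p below 0.05 and the median was 0.05, beside 1 of 15679 genes called. With all 7, DESeq2 called Ndufa11, Ndufv2, Uqcrb, mt-Atp8 and mt-Nd3 higher.

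The mitochondrial share, mt-Nd5 and mt-Co1 were high in tumors 4 to 7. mt-Nd5 was 2663, 2276 and 2620 CPM in controls, 2631, 2302 and 2798 in tumors 1 to 3, and 7404, 7171, 5498 and 5248 in tumors 4 to 7. mt-Co1 was 5653, 4071 and 5149 CPM in controls, 4880 to 5332 in tumors 1 to 3, and 9603 to 11492 in tumors 4 to 7. mt-Nd6 ran against them, at 97.0 to 109 CPM in controls, 126 to 145 in tumors 1 to 3 and 67.2 to 95.8 in tumors 4 to 7. All mitochondrial members together made up 2.21, 1.502 and 1.93% of counts in controls, 2.11, 1.99 and 2.19% in tumors 1 to 3, and 4.41, 4.08, 3.74 and 3.61% in tumors 4 to 7. The nuclear share was higher there too, at 0.609 to 0.843% in controls, 0.789 to 0.891% in tumors 1 to 3 and 0.960 to 1.04% in tumors 4 to 7. Ndufv2, Uqcrq and Cox7a1 showed the same split of tumors, Uqcrq with 112 to 126 CPM in tumors 4 to 7 and 44.6 to 59.1 in the other 6. Among markers of other cells, the summed leukocyte list (7 of 7 genes at more than 0) was 34.6 to 47.6 TPM in controls and 68.4 to 105 in the 7 tumors. The fibroblast list overlapped, at 210 to 424 against 263 to 916, with 0 defining markers of either at 0. The endothelial list overlapped as well, at 47.5 to 69.8 against 41.1 to 50.5, and so did the skeletal muscle and adipocyte lists. These ranges cover all 7 labelled tumors, not tumors 4 to 7 alone. The part of other cells in the result was not tested.

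**Figure D5:**
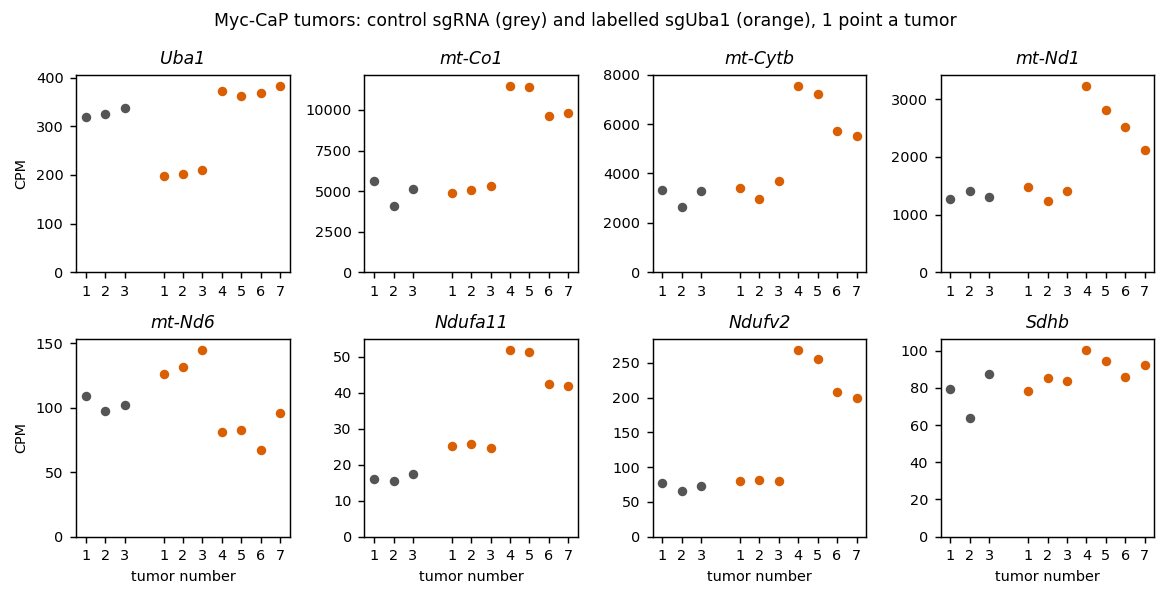
CPM (vertical axes) of Uba1 and 7 members in each Myc-CaP tumor of the sgRNA experiment, 1 panel per gene, with the 3 controls, tumors 1 to 3 and tumors 4 to 7 labelled sgUba1. mt-Co1 overlaps between controls and tumors 1 to 3 and is higher in tumors 4 to 7, whereas mt-Nd6 is highest in tumors 1 to 3.

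With Uba1 OE 0 of 90 members passed by edgeR, and 5 had an unadjusted p below 0.05, 3 higher and 2 lower, beside 0.0269% of all genes called, 0.0202% higher and 0.00673% lower. Groups did not overlap for 1 member higher and 4 lower, beside 10.7% and 10.1% of all genes. The median was −0.04 over members and 0.00 over all genes. mt-Atp8 came nearest, at 243, 239 and 251 CPM with EV and 175, 207, 207 and 196 with OE (−0.31, SE 0.085, adjusted p = 0.1469), and DESeq2 called it (adjusted p = 0.03308). Its 4 OE tumors lay below the 3 EV tumors. For Ndufa11 the log2 fold change was −0.07 (SE 0.12), and for mt-Nd6 −0.08 (SE 0.15), neither passing the test.

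Genes that build and supply the complexes, were counted from lists for cells with TAK-243. These counts stand beside 66.3% of all genes called there, 32.3% higher and 34% lower. Of 48 assembly factors tested 31 fell and 5 rose (median −0.62). Among them Cox15, which makes the heme of complex IV, fell by 1.69, Sdhaf1, which helps insert the iron-sulfur clusters of Sdhb, by 1.77, and Timmdc1, of complex I assembly, by 1.48, whereas Ttc19, of complex III, rose by 0.85. Of 13 electron carriers and subunits outside the name rule 8 fell. Coq2 and Coq9 of ubiquinone synthesis fell by 2.80 and 2.26, with Cycs, cytochrome c, at −0.01 (adjusted p = 0.8722). Mitochondrial ribosomal proteins counted 56 lower and 9 higher of 78 (median −0.43). Of 25 genes that maintain and express mitochondrial DNA 13 fell and 7 rose. Tfb1m, the methyltransferase of mitochondrial ribosomal RNA, fell by 2.96 and Tfam, which packages the DNA and starts its transcription, fell by 0.36, while Polg2, an accessory subunit of its polymerase, rose by 2.18.

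Nuclear regulators of respiratory genes counted 7 lower and 4 higher of 13 with TAK-243, beside the same shares of all genes. Esrra, a nuclear receptor of mitochondrial genes, fell by 1.10, Nrf1, a factor of respiratory promoters, by 0.55 and its coactivator Ppargc1a by 0.53, while Yy1 rose by 0.71 and Gabpa by 0.35. Hypoxia response genes were 6 higher and 5 lower of 13 with TAK-243, and 11 lower of 14 in sgUba1 cells (median −0.52), where 29.7% of all genes were called, 16.2% higher and 13.6% lower. The same lists in sgUba1 cells counted 6 higher and 4 lower for assembly factors and 5 higher and 7 lower for mitochondrial ribosomal proteins. With IFN-γ in untreated cells, 31 of 78 mitochondrial ribosomal proteins rose (median 0.18), beside 19.6% of all genes. This list was not counted on log2(TPM + 1), where the members' own split in that contrast turned to 9 higher and 16 lower. Over the 4 tumor contrasts 2 genes of these lists passed in edgeR, both higher in the Myc-CaP tumors labelled sgUba1. They were Coq7 of ubiquinone synthesis (1.24, adjusted p = 0.03663) and Elac2 (0.52, adjusted p = 0.04247), an enzyme of mitochondrial tRNA processing. Both values come from the fit of all labelled tumors, including those with more Uba1 RNA than any control. With those tumors left out, too few genes were called in all for Coq7 and Elac2 both to pass.

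Promoters were read because members of 1 complex moved in both directions. RefSeq windows on GRCm38.p6, 250 bases before to 50 after the start, were matched for 65 of 78 nuclear members, 70 windows in all. Searched on both strands, the NRF1 part TGCGCATGC stood in 7.14% of members' windows against 1.52% of all 32851, the ETS core CCGGAAGT in 7.14% against 3.89%, and the YY1 part AAGATGGCG in 7 of the 70 against 1.40% of all. Among members matched, windows of the 12 that rose with TAK-243 held NRF1, ETS and YY1 letters in 0, 2 and 1 genes. Those of the 38 that fell held them in 3, 3 and 3, and those of the 15 not called in 2, 0 and 3. A link between letters and direction was not tested. A match describes letters in the window and not a bound site. A window of each direction is shown, with the letters found in capitals, read along the gene's strand. The Uqcrh window (rose with TAK-243; chr4:116075071-116075091, minus strand) holds the ETS core 11 to 4 bases before the start, and the Atp5g2 window (fell; chr15:102671069-102671097, minus strand) the NRF1 letters 40 to 32 bases before, both on the opposite strand.
Uqcrh: agtatgccgcACTTCCGGcca
Atp5g2: ctccggccgcGCATGCGCAgagccttccc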

How the data were processed

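Members and gene lists were chosen with earlier results of these data known. Expected counts, which need not be whole, were deposited by the authors for each gene; the submitters' processing notes name kallisto and mm10, with no version. The authors also deposited TPM, scaled for gene length, used for levels and as an alternative. Per the labels RNA was captured on oligo(dT), whereas the methods name a ribosomal depletion kit. Read counts had been planned for, and the expected counts were therefore rounded to whole numbers. Genes were filtered with filterByExpr, scaled by TMM and tested with edgeR 4.0.16 (R 4.3.3) by the quasi-likelihood test over all genes, with Benjamini-Hochberg adjustment at 0.05. Each tumor experiment was fitted alone and each cell experiment with its 8 libraries together. CPM use TMM factors, and SE is the log2 fold change divided by the square root of F. Alternatives were DESeq2 1.42.0, limma 3.58.1 on log2(TPM + 1), RLE and no filter. Also run were all genes whose names start with mt- out of the totals, only the groups compared and a replicate block. Further alternatives were tumors 1 to 3 alone and each library left out. Counts of near-identical copies (97.5% identity over 200 bases or more) were also added, an alternative chosen after seeing the data. Pipelines were tested on simulated data. Genes named are the 13 mitochondrial genes, complex II, isoform families, the highest member per complex, Uba1, and per comparison the up to 5 largest rises and falls among called members; others were chosen after their values were seen. All 75 replicate pairs differed beyond counting error, 0 were identical, and depth limits precision for members under a few CPM. The main fits did not pair samples by replicate number. Correlations of same-numbered deviations ran from −0.179 to 0.315, the highest between vehicle tumor 5 and TAK-243 tumor 5. Differently numbered samples were not correlated for reference, so these values cannot decide whether samples were paired. RNAs of the mitochondrial genome other than its protein genes were not analysed here.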

Additional observations from a re-analysis of the deposited data

Results flagged for a closer look

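Groups of 2 or 3 libraries were not tested for lone libraries. That left out all cell groups and the EV and control sgRNA tumors. A lone library stood far from the rest of its group (its gap to the nearest sample, over the group's range, passing Dixon's 95% critical value) in 7 of 160 groups of values tested, and chance gives about 1 in 20. These were mt-Nd4l in B16-BL6 sgUba1 tumor 3 (580.8 CPM), Cox7a2l in B16-BL6 sgUba1 tumor 4 (81.2 CPM), mt-Nd6 in TAK-243 tumor 2 (82.3 CPM), mt-Co2 in vehicle tumor 5 (2532 CPM), Sdha in vehicle tumor 4 (191 CPM), Sdhd in TAK-243 tumor 4 (61.2 CPM) and Cox4i2 in TAK-243 tumor 5 (0.467 CPM).

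The effect of sgUba1 in cells differed with IFN-γ, by the interaction test in edgeR (adjusted p from 0.01442 to 0.04506), for mt-Nd6 (0.61 on the log2 scale), Cox6c (0.58), Atp5md (0.54), Uqcrb (0.46), Cox7c (0.36), mt-Nd4l (0.34), Ndufa5 (0.33) and Uqcrc1 (−0.28). The effect of TAK-243 differed with IFN-γ for mt-Nd6 (0.38), mt-Nd5 (0.15), Atp5a1 (−0.15), mt-Cytb (−0.15), Atp5b (−0.15), mt-Nd2 (−0.17), Cox4i1 (−0.19), Uqcrc1 (−0.21), Cox8a (−0.22), Atp5g3 (−0.23), mt-Co1 (−0.24), mt-Nd1 (−0.25), Uqcr11 (−0.30), Atp5d (−0.30), Ndufb6 (−0.44) and Atp5g2 (−0.51). In the sgUba1 experiment the term for mt-Nd6 joins a fall without IFN-γ to a rise with it, and in the TAK-243 experiment a larger fall to a smaller one.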

How the results depend on the processing

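Counts of members called, after the main counts, were as follows. With DESeq2 they were 4 for B16-BL6, 5 for Myc-CaP sgUba1, 1 for OE, 1 for TAK-243 tumors and 9 for the TAK-243 by IFN-γ interaction. With no filter they were 0 for Myc-CaP sgUba1, 33 for sgUba1 cells, 26 for IFN-γ in control sgRNA cells and 19 for the sgUba1 by IFN-γ interaction. On log2(TPM + 1) they were 3 for Myc-CaP sgUba1, 9 for sgUba1 cells, 33 for sgUba1 cells with IFN-γ, 25 for IFN-γ in untreated cells, and 0 for IFN-γ in control sgRNA cells and for both interactions. RLE gave 5 for IFN-γ in control sgRNA cells. Leaving genes whose names start with mt- out of the totals gave 5 for that contrast and 6 for the TAK-243 by IFN-γ interaction. With copies added the latter was 7. Fits of only the groups compared gave 6 for sgUba1 cells and 0 for IFN-γ in control sgRNA cells. The replicate block gave 0 for Myc-CaP sgUba1, 25 for sgUba1 cells and 11 for the sgUba1 by IFN-γ interaction, and moved other counts by less than 1.5 times. The labels tie same-numbered samples by number only. Tumors 1 to 3 alone gave 0.

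Leaving out 1 library gave 0 to 3 for Myc-CaP sgUba1 (0 without any control or without sgUba1 tumor 1, 4, 5, 6 or 7), 0 to 1 for TAK-243 tumors (1 without vehicle 6 or TAK-243 tumor 5), 7 to 50 for sgUba1 cells, 27 to 43 for sgUba1 cells with IFN-γ (27 and 28 without stimulated control 1 and 2), 0 to 52 for IFN-γ in control sgRNA cells, 0 to 36 for the sgUba1 by IFN-γ interaction (29 and 36 without control sgRNA library 1 and 2), 3 to 9 for the TAK-243 by IFN-γ interaction, 0 to 0 for B16-BL6 and OE, 67 to 71 for TAK-243, 66 to 69 for TAK-243 with IFN-γ and 41 to 46 for IFN-γ in untreated cells. A lone remaining cell library was assumed to vary like the other groups.

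The sign changes listed here are those where the main or the alternative fit passed. Signs turned for mt-Co2 with IFN-γ in control sgRNA cells (−0.25 to 0.35 over libraries left out), mt-Nd3 with TAK-243 (−0.04 to 0.98) and IFN-γ (−0.31 to 0.71), and mt-Co3 with TAK-243 (−0.42 to 0.38). With copies added mt-Co2 with TAK-243 was 0.05 and mt-Nd3 with TAK-243 under IFN-γ 0.21. On log2(TPM + 1) mt-Co1 with TAK-243 under IFN-γ was 0.01, and with IFN-γ in untreated cells mt-Nd1 was −0.14, mt-Nd2 −0.22, mt-Co1 −0.12, Sdhd −0.12, Cox6b1 −0.03, Cox7a2l −0.09 and Cox7b −0.21. The TAK-243 by IFN-γ terms of mt-Nd2 and mt-Cytb were 0.01 and 0.02 there. Where no construction shows it, the cause was not tested. Over all alternatives, log2 fold changes kept direction and side of the threshold 3975 times. With the same sign they fell below it 337 times and rose past it 115 times. The sign changed 16 times where the main or the alternative fit passed, and 246 times where neither passed. The setting for totals left out every gene whose name starts with mt-. No setting left out the ribosomal and transfer RNA genes of mitochondria alone. Depth limits Cox7a1 and Cox4i2, near 1 CPM or below in cells.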
